A study of Rattus norvegicus with 28 samples.

Results

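The endothelin and adrenomedullin systems are a pair of vasoactive peptide systems, and 10 of their genes were followed here in the rat left ventricle. The members were the ligand genes Edn1, Edn3 and Adm, the endothelin receptor genes Ednra and Ednrb, the processing enzyme gene Ece1, and the genes of the adrenomedullin receptor and its partners, Calcrl, Ramp1, Ramp2 and Ramp3. They were chosen by gene symbol, with the brightest probe for each gene. Of the 10 members, 7 had a probe with that symbol alone in the array annotation, and all 7 passed the filter on dim probes that kept 11493 genes. Ednra, Ednrb and Ramp2 had no such probe and were not analysed here.

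Endothelin-1, the product of Edn1, is made as a precursor that furin-like proteases and endothelin-converting enzyme (Ece1) trim to a short peptide. It constricts vessels and drives muscle cell growth through a Gq-coupled receptor on smooth muscle and heart muscle cells, while the other endothelin receptor, on endothelium, clears the peptide and releases nitric oxide. Adrenomedullin, the product of Adm, dilates vessels through the receptor encoded by Calcrl, which needs 1 of the receptor activity-modifying proteins (RAMPs) to reach the membrane. With RAMP1 the receptor binds calcitonin gene-related peptide, and with the other RAMPs it binds adrenomedullin and raises cyclic AMP.

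The study profiled left ventricles of male rats in 3 groups, 1 array per sample. Treated dTGR (12 arrays) received BAY 41-8543, a stimulator of soluble guanylate cyclase, at 3 mg/kg/day, and vehicle dTGR (8 arrays) received Transcutol, Cremophor-EL and water. Sprague Dawley (SD) controls (8 arrays) were wild type and untreated. Double transgenic rats (dTGR), labelled SD-Tg(hAGT)L1623xTg(hREN)L10J, carry human angiotensinogen and renin genes on the SD background, and the labels give their phenotype as HFpEF (heart failure with preserved ejection fraction) induced by hypertension. The promoters of the transgenes are not given in the sources used here, and the rat probes do not measure the transgenes. Animals entered the groups at an age of 3.5 weeks and reached the end of the study at 7 weeks, and the dTGR were gavaged daily from 4 weeks. The series' design text gives 4 weeks of treatment, which these ages do not match. Genotype cannot be told apart from gavage and vehicle in the comparisons with SD, since the SD rats had neither. In treated dTGR against SD it cannot be told apart from the drug either.

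Levels are log2 of the deposited normalized intensity, which compares groups for the same probe and does not rank genes. Group levels are means with the standard deviation over arrays, and differences are log2 differences with their standard error (SE). A gene was called at an adjusted p under 0.05 over all 11493 genes (limma, Benjamini-Hochberg). Vehicle replicates 6 and 7 stood apart from the other vehicle hearts: on the first principal component they lay at -0.84 and -2.92, within the range of treated dTGR (-7.94 to 4.72), while the other 6 lay between 10.2 and 41.3 and SD between -22.9 and -17.1. Results that rest on them are given with and without them. They were picked on these same data for lying near treated dTGR, so leaving out either or both can widen differences between vehicle and treated dTGR. Values without them are therefore a description and no support for a call. Ventricular muscle genes were bright throughout, with a summed intensity of 9 cardiomyocyte markers from 540192 to 597276 in treated dTGR, 543473 to 568822 in vehicle dTGR and 576009 to 610186 in SD. Of these markers, 4 were called lower in vehicle dTGR than in SD, as were 11.7% of all genes. The furthest was Myh6 at -0.31. Of 2 measured atrial markers the light chain gene Myl7 had a log2 difference of -1.77 ± 0.36 (SE), while Sln was not called (-0.10 ± 0.41). In treated dTGR against SD, 3 cardiomyocyte markers were called lower, as were 7.87% of all genes. The furthest was Tnni3 at -0.25. Myl7 had a log2 difference of -1.99 ± 0.33 there, and Sln was again not called.

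In vehicle dTGR against SD, Adm and Ece1 were higher and Ramp1 was lower. The log2 differences were 0.56 ± 0.10 (SE) for Adm, 0.38 ± 0.09 for Ece1 and -0.49 ± 0.17 for Ramp1. Thus 3 of 7 measured members were called, where 23.8% of all genes were. Of these, 2 were higher and 1 lower, where 12.1% of all genes were called higher and 11.7% lower. The groups did not overlap for 1 member, Adm, as for 4.07% of all genes (1.96% higher and 2.11% lower). The median difference was 0.19 over the 7 members and 0.0033 over all genes. With 7 members the median is the value of 1 gene, here Edn1. Bulk tissue cannot tell a change in the number of cells that carry a transcript from a change per cell.

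In treated against vehicle dTGR, Adm and Ece1 were lower. The log2 differences were -0.35 ± 0.09 (SE) for Adm and -0.42 ± 0.09 for Ece1. Thus 2 of 7 members were called, where 9.79% of all genes were. Both were lower and none was higher, where 4.42% of all genes were called lower and 5.37% higher. By limma, 4 of 7 members and 22.9% of all genes had an unadjusted p under 0.05. The same numbers were 5 members and 34.3% in vehicle dTGR against SD, and 3 members and 28.3% in treated dTGR against SD. The 5 include Ramp3, whose SD mean lay below the filter level for dim probes. For no member did the groups separate, and they did for 0.0609% of all genes, each of them higher. The median difference was -0.31 over the members, the value of the dim Ramp3, which was not called, and 0.0097 over all genes. Without vehicle replicates 6 and 7, 4 of 7 members were called, Calcrl higher and Edn1, Ece1 and Adm lower, and the share of all genes called was 18% in place of 9.79%. Leaving out vehicle replicate 6 alone also gave 4, with 13.6% of all genes called.

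In treated dTGR against SD, Calcrl was higher by 0.41 ± 0.08 (SE) and Ramp1 was lower by a log2 difference of -0.51 ± 0.15, while Ece1 (-0.04 ± 0.09) and Adm (0.21 ± 0.09) were not called. Thus 2 of 7 members were called, where 17.4% of all genes were. Of these, 1 was higher and 1 lower, where 9.54% of all genes were called higher and 7.87% lower. The groups did not overlap for 1 member, Calcrl, as for 3% of all genes (1.81% higher and 1.19% lower). The median difference was 0.05 over the members, the value of the dim Edn3, and 0.01 over all genes. The 3 comparisons share arrays in pairs, so the same vehicle or SD arrays stand behind more than 1 difference of each gene.

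**Figure D1:**
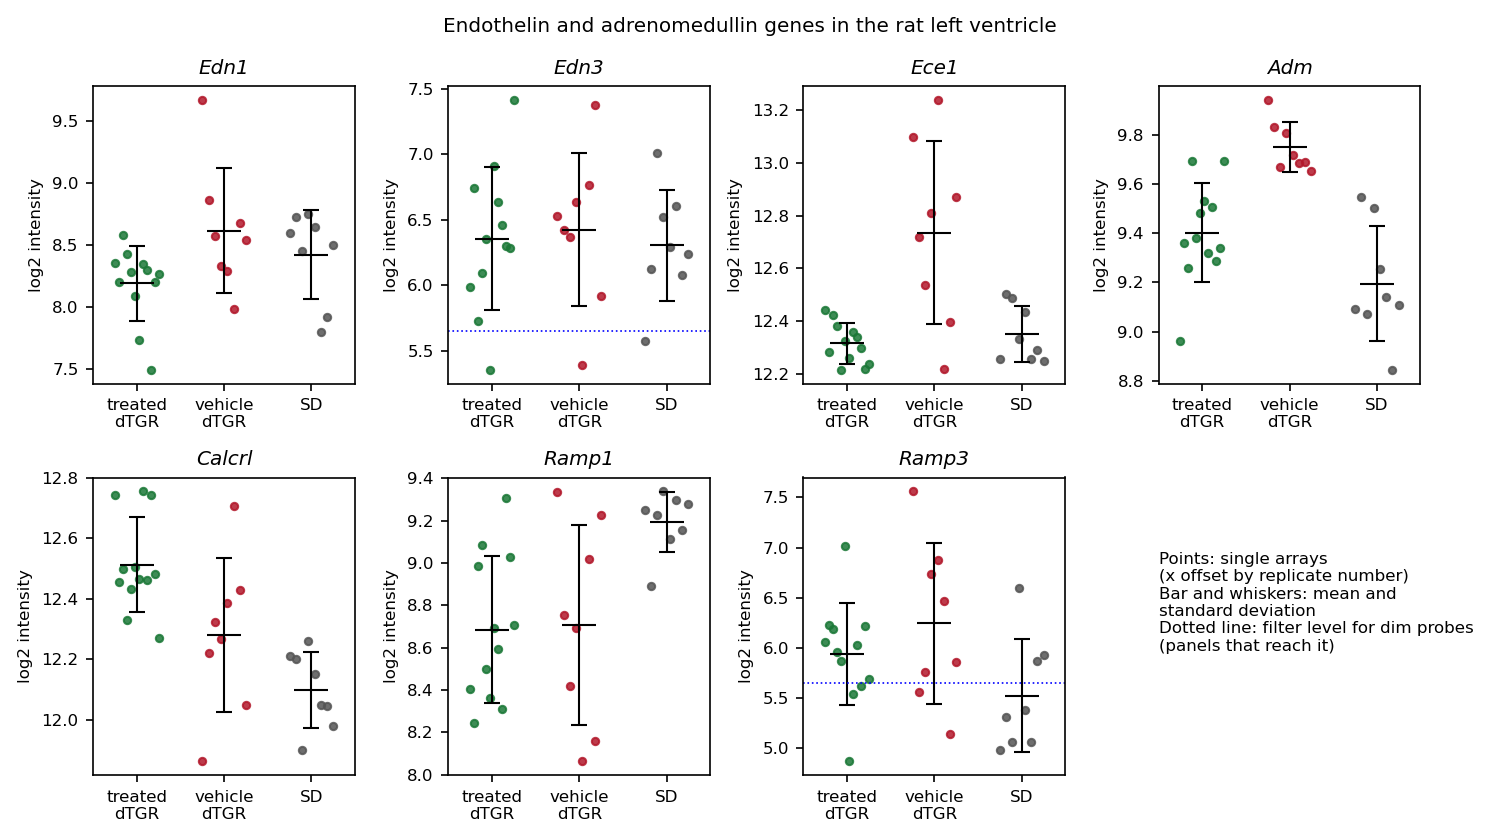
Log2 intensity of the 7 measured members (vertical axes) in treated dTGR (12 arrays), vehicle dTGR (8) and SD (8), with a point per array and the mean and standard deviation of each group. All 8 vehicle arrays lie above all 8 SD arrays for Adm, and all 12 treated arrays lie above all SD arrays for Calcrl. In all other pairs of groups, and for all other members, the groups overlap.

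**Figure D2:**
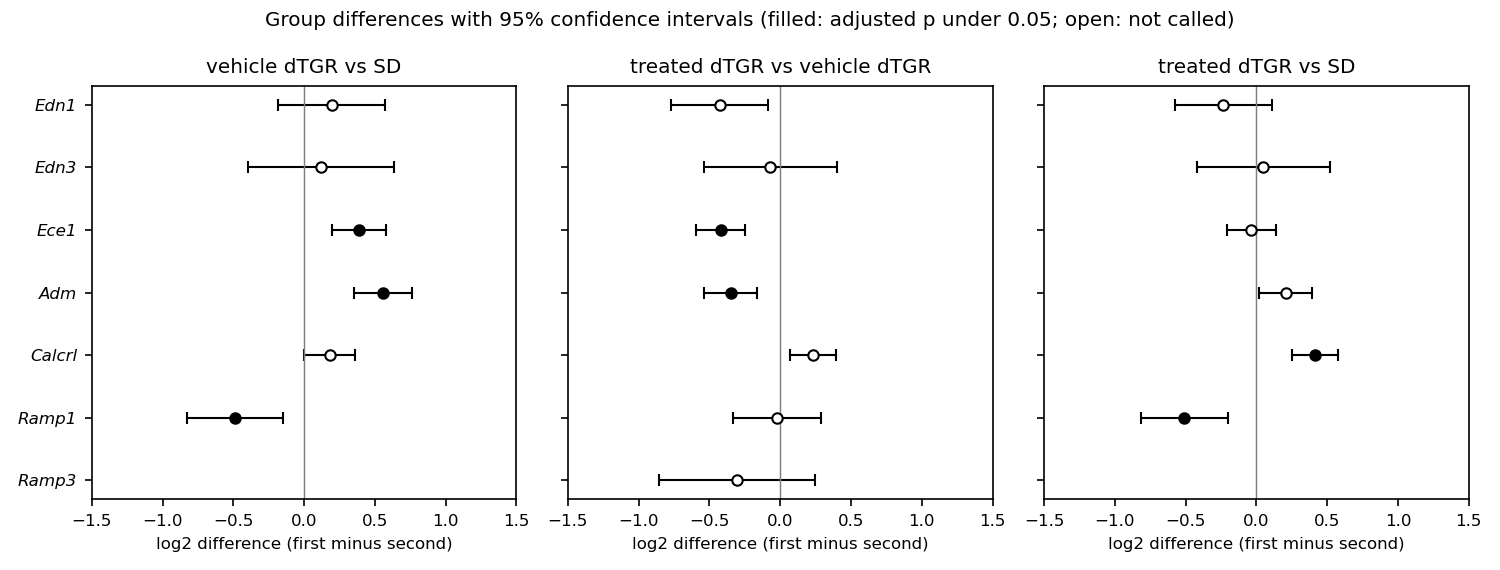
Log2 differences between groups (horizontal axes) for each member with their 95% confidence intervals, in the 3 comparisons, with filled points for an adjusted p under 0.05 and no point for Ramp3 against SD, whose SD mean lay below the filter level. Adm and Ece1 lie above 0 in vehicle dTGR against SD and below 0 in treated against vehicle dTGR, and Ramp1 lies below 0 in both comparisons with SD.

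Edn1 lies on chromosome 17 (22660799 to 22666687, GRCr8). It spanned 7.49 to 8.58 in treated dTGR (median 8.28), 7.99 to 9.68 in vehicle dTGR (median 8.56) and 7.80 to 8.75 in SD (median 8.55). The groups overlapped widely, and the highest value of all was that of vehicle replicate 1. Edn1 was not called in vehicle dTGR against SD (0.19 ± 0.18, SE, 95% interval -0.18 to 0.57, adjusted p = 0.51). In treated against vehicle dTGR its difference was -0.43 ± 0.17 (adjusted p = 0.107), and all 12 treated arrays lay below the vehicle mean of 8.62. Without vehicle replicates 6 and 7 the difference was -0.52 (adjusted p = 0.0389), and without replicate 6 alone, the lowest vehicle heart for Edn1, it was also -0.52 (adjusted p = 0.0364). Without vehicle replicate 1 it was -0.28, and there the adjusted p was 0.294. Against SD, treated dTGR differed by -0.23 ± 0.17 (adjusted p = 0.397).

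Edn3, the gene of the endothelin peptide that prefers the endothelial receptor, gave a dim signal. It ranged from 5.35 to 7.42 in treated dTGR (median 6.33), 5.39 to 7.38 in vehicle dTGR (median 6.48) and 5.58 to 7.01 in SD (median 6.27), and 1 array of each group lay below the filter level of 5.65. The groups covered nearly the same span. Its differences were 0.12 ± 0.25 (SE) in vehicle dTGR against SD, -0.07 ± 0.23 in treated against vehicle dTGR and 0.05 ± 0.23 in treated dTGR against SD. None was called, and the 95% interval of the second ran from -0.54 to 0.40.

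Ece1, the membrane protease that releases active endothelin from its precursor, lies on chromosome 5 (155361031 to 155462723). It ranged from 12.21 to 12.44 in treated dTGR (median 12.31), 12.22 to 13.24 in vehicle dTGR (median 12.76) and 12.25 to 12.50 in SD (median 12.31). Treated and SD hearts shared 1 narrow band, and 6 of 8 vehicle hearts lay above all SD hearts. The spread differed as well, with a standard deviation of 0.08 in treated dTGR, 0.35 in vehicle dTGR and 0.11 in SD. Vehicle dTGR stood 1.31-fold above SD (log2 0.38 ± 0.09, SE, adjusted p = 0.00242), and treated dTGR stood 1.34-fold below vehicle dTGR (log2 -0.42 ± 0.09, adjusted p = 0.00225, 12 of 12 arrays below the vehicle mean). Treated dTGR and SD differed by -0.04 ± 0.09, with an interval of -0.21 to 0.14 (adjusted p = 0.84). The 2 vehicle hearts with the lowest Ece1 were replicate 6 at 12.22 and replicate 7 at 12.40, the first just below the lowest SD heart and the second inside the range of SD. Without them the differences were 0.53 for vehicle dTGR against SD (adjusted p = 2.85e-06) and -0.56 for treated against vehicle dTGR (adjusted p = 6.29e-07).

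Adm lies on chromosome 1 (174164178 to 174182372). It ranged from 8.96 to 9.70 in treated dTGR (median 9.37), 9.65 to 9.94 in vehicle dTGR (median 9.71) and 8.84 to 9.55 in SD (median 9.12). All 8 vehicle hearts lay above all 8 SD hearts, which held in this direction for 1.96% of genes. Vehicle dTGR stood 1.47-fold above SD (log2 0.56 ± 0.10, SE, adjusted p = 9.43e-05). In treated dTGR, 10 of 12 hearts lay below the lowest vehicle heart, and treated dTGR stood 1.27-fold below vehicle dTGR (log2 -0.35 ± 0.09, adjusted p = 0.0131). Vehicle replicates 6 and 7 stood at 9.69 each, close to the vehicle median, and without them the differences were 0.58 against SD and -0.37 for treated against vehicle dTGR. The order of the means was vehicle dTGR (9.75 ± 0.10, standard deviation, n = 8), treated dTGR (9.40 ± 0.20, n = 12) and SD (9.20 ± 0.23, n = 8). Treated dTGR and SD, which are neighbours in that order, were not called apart (0.21 ± 0.09, SE, interval 0.02 to 0.39, adjusted p = 0.126), but without treated replicate 1, the lowest treated heart, they were (0.25, adjusted p = 0.0451).

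The promoters of Adm and Ece1, which were both higher in vehicle dTGR and lower in treated than in vehicle dTGR, are printed beside that of Edn1, a ligand gene that was not called in any comparison. Each runs 5′ to 3′ from 250 bases before to 50 bases after the gene's start in the RefSeq table (GRCr8), and 8 of 10 members have an entry there. Capitals mark matches on either strand to ACGTG (the core of the hypoxia response element), TGANTCA (an AP-1 site) or AGATAA (a site of GATA factors).
Adm, chr1:174179950-174180249, strand +: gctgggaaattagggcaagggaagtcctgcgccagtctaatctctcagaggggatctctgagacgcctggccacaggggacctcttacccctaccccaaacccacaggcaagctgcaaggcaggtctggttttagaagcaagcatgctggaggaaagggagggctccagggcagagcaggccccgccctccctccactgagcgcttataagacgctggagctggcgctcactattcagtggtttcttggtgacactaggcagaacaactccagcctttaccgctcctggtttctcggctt
Ece1, chr5:155360781-155361080, strand +: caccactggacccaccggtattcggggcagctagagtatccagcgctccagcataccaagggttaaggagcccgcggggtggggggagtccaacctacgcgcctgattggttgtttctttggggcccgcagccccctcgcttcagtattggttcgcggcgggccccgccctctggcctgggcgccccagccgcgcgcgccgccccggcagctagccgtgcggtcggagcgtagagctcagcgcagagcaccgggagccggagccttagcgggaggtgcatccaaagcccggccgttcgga
Edn1, chr17:22666638-22666937, strand -: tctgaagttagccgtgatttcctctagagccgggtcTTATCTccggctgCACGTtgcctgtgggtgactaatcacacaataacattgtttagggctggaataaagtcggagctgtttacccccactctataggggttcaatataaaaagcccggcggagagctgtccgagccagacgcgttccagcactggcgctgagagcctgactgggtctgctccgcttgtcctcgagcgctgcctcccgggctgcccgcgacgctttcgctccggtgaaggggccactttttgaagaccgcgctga
The Edn1 window held 1 match to AGATAA, read on the opposite strand as TTATCT from -214 to -209 relative to the start, and 1 match to ACGTG, read as CACGT from -201 to -197. These do not overlap. The Adm and Ece1 windows held no match to any of the 3 motifs. Among 33469 promoters of the same length, 19.3% held ACGTG, 7.33% TGANTCA and 11.6% AGATAA. A match describes the letters of the window and is not evidence of binding, and the start used for Adm lies inside the annotated span of the gene.

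Calcrl, the gene of the calcitonin receptor-like receptor, lies on chromosome 3 (89835071 to 89932616). It ranged from 12.27 to 12.76 in treated dTGR (median 12.47), 11.86 to 12.71 in vehicle dTGR (median 12.29) and 11.90 to 12.26 in SD (median 12.10). All 12 treated hearts lay above all 8 SD hearts, which held in this direction for 1.81% of genes, and vehicle hearts overlapped both groups. Treated dTGR stood 1.33-fold above SD (log2 0.41 ± 0.08, SE, adjusted p = 0.000314). Vehicle dTGR against SD gave 0.18 ± 0.09 (adjusted p = 0.14), and treated against vehicle dTGR gave 0.23 ± 0.08 (adjusted p = 0.0608), so neither pair of neighbours was called apart. Both depended on single hearts. Without vehicle replicate 1, the lowest at 11.86, vehicle dTGR was higher than SD (0.24, adjusted p = 0.032). Without vehicle replicate 6, the highest at 12.71, treated dTGR was higher than vehicle dTGR (0.29, adjusted p = 0.00746), and likewise without vehicle replicate 7 (0.25, adjusted p = 0.0389), without treated replicate 12 (0.25, adjusted p = 0.0416) or without vehicle replicates 6 and 7 together (0.33, adjusted p = 0.00231). Without both of those hearts, the difference of vehicle dTGR from SD was 0.08 (adjusted p = 0.516).

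**Figure D3:**
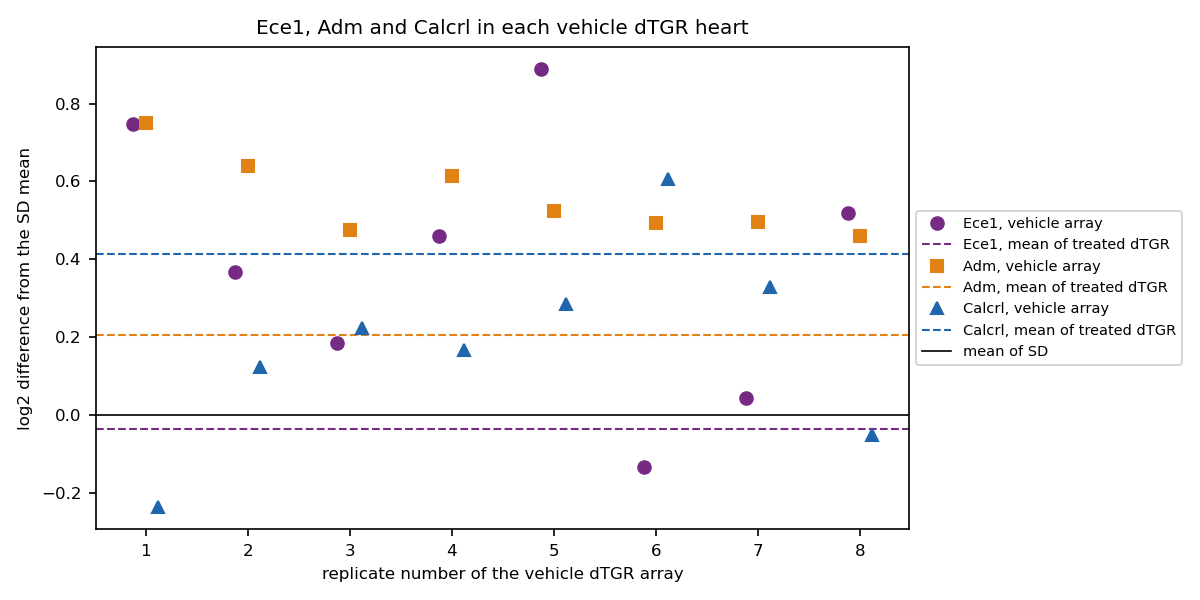
Level of Ece1, Adm and Calcrl in each of the 8 vehicle dTGR hearts (horizontal axis, replicate number) as a log2 difference from the SD mean (vertical axis), with dashed lines at the mean of treated dTGR. Replicate 6 has the lowest Ece1 (12.22) and the highest Calcrl (12.71) of the 8, while its Adm (9.69) lies with the other vehicle hearts.

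Ramp1, the partner that turns the Calcrl receptor towards calcitonin gene-related peptide, lies on chromosome 9 (99213031 to 99263696). It ranged from 8.25 to 9.31 in treated dTGR (median 8.64), 8.06 to 9.34 in vehicle dTGR (median 8.72) and 8.89 to 9.34 in SD (median 9.24). In treated dTGR 8 of 12 hearts, and in vehicle dTGR 5 of 8, lay below the lowest SD heart, and the transgenic hearts varied more than the SD hearts (standard deviation 0.35 in treated dTGR, 0.47 in vehicle dTGR and 0.14 in SD). Treated dTGR stood 1.42-fold below SD (log2 -0.51 ± 0.15, SE, adjusted p = 0.0175). Vehicle dTGR stood 1.40-fold below SD (log2 -0.49 ± 0.17, adjusted p = 0.0317), and this call was lost when SD replicate 4 or 6 or vehicle replicate 3, 5 or 7 was left out, when both of vehicle replicates 6 and 7 were, and when arrays were weighted, at differences from -0.47 to -0.39 and adjusted p from 0.0512 to 0.0833. Treated and vehicle dTGR differed by -0.02 ± 0.15, with an interval of -0.33 to 0.29 (adjusted p = 0.95).

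Ramp3, a partner that makes Calcrl an adrenomedullin receptor, was near the filter level of 5.65. It ranged from 4.87 to 7.02 in treated dTGR (median 5.99), 5.14 to 7.56 in vehicle dTGR (median 6.17) and 4.98 to 6.60 in SD (median 5.35). Below the filter level lay 3 of 12 treated, 2 of 8 vehicle and 5 of 8 SD hearts, and the SD mean of 5.52 was itself below it. No difference from SD is therefore given for Ramp3, which was not called in either comparison with SD and whose 3 groups overlapped. Treated against vehicle dTGR gave -0.31 ± 0.27 (SE, adjusted p = 0.551), with 11 of 12 treated hearts below the vehicle mean of 6.25.

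Whether members changed unequally was tested on the log2 difference between a pair of members within each array. Such a difference carries the brightness of both probes, so its size says nothing of relative abundance and only its change between groups is read. Of 6 pairs laid out, 3 had both genes measured, and p-values of exact two-sided permutation tests were adjusted over the 9 tests. The difference Calcrl minus Adm, receptor against ligand, averaged 3.11 ± 0.34 (standard deviation) in treated dTGR and 2.53 ± 0.32 in vehicle dTGR. It was larger in treated dTGR by 0.58 (exact permutation test, adjusted p = 0.00936), and 8 of 12 treated hearts lay above the highest vehicle heart. In SD it averaged 2.90 ± 0.18, and vehicle dTGR lay below SD by a difference of -0.38 (exact permutation test, adjusted p = 0.0323). That call was lost without SD replicates 1, 3, 5, 7 or 8, at adjusted p from 0.0592 to 0.0715 by the same test. The difference was then -0.39, -0.38 and -0.38 without replicates 3, 5 and 8, and -0.35 and -0.33 without replicates 1 and 7. Each adjusted p also depends on the other tests among the 9. Treated dTGR and SD differed by 0.21 (exact permutation test, adjusted p = 0.246).

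The difference Edn1 minus Adm, constrictor against dilator ligand, averaged -1.21 ± 0.37 (standard deviation) in treated dTGR, -1.13 ± 0.43 in vehicle dTGR and -0.77 ± 0.27 in SD. Treated dTGR lay below SD by a difference of -0.44 (exact permutation test, adjusted p = 0.0323). That call was lost without SD replicates 1, 3, 4, 5, 7 or 8 or treated replicate 12. The differences then ran from -0.46 to -0.40, at adjusted p from 0.0507 to 0.0715 by the same test. Vehicle dTGR against SD gave -0.36 (exact permutation test, adjusted p = 0.147), and without vehicle replicate 1, the heart with the highest Edn1, it gave -0.49 (adjusted p = 0.0245). Treated and vehicle dTGR differed by -0.08 (exact permutation test, adjusted p = 0.759). Edn1 minus Edn3 was not called in any comparison, at adjusted p from 0.402 to 0.821 by the same exact test.

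**Figure D4:**
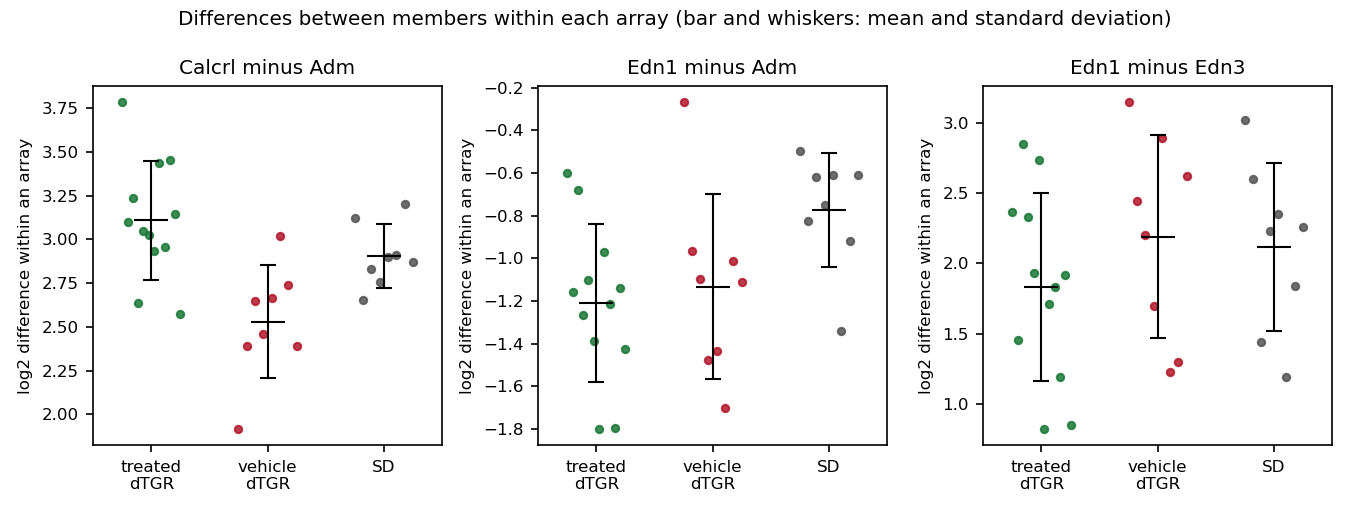
Log2 difference between a pair of members within each array (vertical axes) in treated dTGR, vehicle dTGR and SD, with a point per array and the mean and standard deviation. For Calcrl minus Adm, 8 of 12 treated arrays lie above every vehicle array. The groups overlap in every pair for all 3 differences.

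Around the endothelin members, 11 genes of peptide processing were listed and 5 measured. The counts of this and the following pathway lists stand beside shares over all genes. Of all genes, 23.8% were called in vehicle dTGR against SD, 9.79% in treated against vehicle dTGR and 17.4% in treated dTGR against SD. In vehicle dTGR 1 of 5 was higher than in SD, Ctsa (0.26 ± 0.06, SE, adjusted p = 0.00112), the gene of cathepsin A, a carboxypeptidase that degrades endothelin. In treated against vehicle dTGR 1 of 5 was lower, Furin (-0.26 ± 0.08, adjusted p = 0.0324), which encodes the protease that makes the first cuts in the endothelin precursor. Ctsa was also higher in treated dTGR than in SD (0.20 ± 0.05, adjusted p = 0.00963). The list medians were 0.08, -0.26 and -0.18 in vehicle dTGR against SD, treated against vehicle dTGR and treated dTGR against SD.

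Of 19 listed genes of Gq signalling and its brakes, 11 were measured. In vehicle dTGR 1 was higher than in SD and 1 lower. The higher gene was Grk5 (0.54 ± 0.12, SE, adjusted p = 0.00124), a kinase that desensitizes G protein-coupled receptors. The lower gene was Rgs4 (-0.40 ± 0.13, adjusted p = 0.0191), which speeds the switching off of Gq and Gi. Rgs4 averaged 11.43 in treated dTGR, 10.98 in vehicle dTGR and 11.38 in SD, and it was the 1 gene called in treated against vehicle dTGR (0.45 ± 0.12, adjusted p = 0.0117, 12 of 12 arrays above the vehicle mean). In treated dTGR against SD 2 were higher and 1 lower. Rgs2, a further brake on Gq, was lower (-0.74 ± 0.16, adjusted p = 0.00136). All 12 treated hearts lay below the lowest SD heart, which held in this direction for 1.19% of genes. In vehicle dTGR against SD, Rgs2 gave -0.46 ± 0.18 (adjusted p = 0.0631), with 5 of 8 hearts below the lowest SD heart. Treated against vehicle dTGR gave -0.29 ± 0.16 for Rgs2 (adjusted p = 0.305), and neither was called. Grk5 (0.39 ± 0.11) and the arrestin gene Arrb1 (0.24 ± 0.08) were higher. The list median lay between 0.03 and 0.05 in the 3 comparisons.

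Of 10 listed genes of the calcitonin peptide family, its processing and related receptors, 8 had a probe and 5 passed the filter. In vehicle dTGR 2 of 5 were higher than in SD and 1 was lower. Pam, whose enzyme adds the terminal amide that adrenomedullin needs to act, was higher (0.33 ± 0.06, SE, adjusted p = 0.000159). All 8 vehicle hearts lay above all SD hearts for Pam, which held in this direction for 1.96% of genes. Ackr3, the atypical receptor that scavenges adrenomedullin, was higher as well (0.32 ± 0.10, adjusted p = 0.0165). Crcp, a small protein that couples the Calcrl receptor to its signal, was lower (-0.19 ± 0.07, adjusted p = 0.0477). None of the 5 was called in treated against vehicle dTGR by limma, although 3 had an unadjusted p under 0.05. The 2 with the largest differences were Gpr182 (-0.39 ± 0.15, adjusted p = 0.104) and Ackr3 (-0.23 ± 0.09, adjusted p = 0.0954). Pam was also higher in treated dTGR than in SD (0.22 ± 0.06, adjusted p = 0.00474).

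Of 17 listed genes of Gs and cyclic AMP signalling, 11 were measured. In vehicle dTGR 1 was higher than in SD and 2 were lower. Adcy5, a main adenylyl cyclase of heart muscle, was lower in all 8 vehicle hearts than in any SD heart (-0.62 ± 0.07, SE, adjusted p = 1.62e-07). It was also lower in all 12 treated hearts than in any SD heart (-0.51 ± 0.07, adjusted p = 8.51e-07). Such a separation downwards from SD held for 2.11% of genes in vehicle dTGR and 1.19% in treated dTGR. Prkaca, a catalytic subunit of protein kinase A, was lower in vehicle dTGR than in SD (-0.21 ± 0.06, adjusted p = 0.00477). Rapgef3, the cyclic AMP sensor Epac, was higher there (0.50 ± 0.12, adjusted p = 0.00219), and lower in treated than in vehicle dTGR (-0.35 ± 0.11, adjusted p = 0.0412). In treated against vehicle dTGR 2 of 11 were higher, the adenylyl cyclase gene Adcy7 (0.79 ± 0.20, adjusted p = 0.0111) and Prkacb (0.36 ± 0.09, adjusted p = 0.0101), and Rapgef3 was the 1 lower gene. In treated dTGR against SD, Adcy7 was higher (0.78 ± 0.20) and Adcy5, Adcy6 (-0.47 ± 0.12) and Gnas (-0.61 ± 0.18, on a dim probe) were lower. The list medians were -0.18, 0.11 and -0.03.

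Adm is a textbook target of hypoxia-inducible factors, and 16 of 25 listed hypoxia-inducible genes were measured. In vehicle dTGR 4 were higher than in SD and 2 lower, so 6 of 16 were called, where 23.8% of all genes were. In treated against vehicle dTGR 3 were higher and 5 lower, so 8 of 16 were called, where 9.79% of all genes were. The list medians of 0.0019 and 0.04 lay close to those of all genes (0.0033 and 0.0097), with called genes on both sides. The 4 higher in vehicle dTGR were the mTOR inhibitor gene Ddit4 (1.33 ± 0.33, SE), the glucose transporter gene Slc2a1 (0.89 ± 0.14), Ndrg1 (0.85 ± 0.18) and the mitophagy receptor gene Bnip3 (0.77 ± 0.12). Each of these was lower in treated than in vehicle dTGR, Ddit4 by a log2 difference of -1.09 ± 0.30, Ndrg1 by -0.87 ± 0.16, Bnip3 by -0.69 ± 0.11 and Slc2a1 by -0.46 ± 0.13. Pfkfb3 (-0.80 ± 0.25) was lower too. The 2 lower in vehicle dTGR than in SD were Hk2 (-0.40 ± 0.07) and Bnip3l (-0.27 ± 0.08). The 3 higher in treated than in vehicle dTGR were the transferrin receptor gene Tfrc (0.95 ± 0.23), Egln3 (0.37 ± 0.08) and Hk2 (0.24 ± 0.07). Hk2 thus went the opposite way to Adm in both comparisons. In treated dTGR against SD 3 were higher and none lower, Tfrc (0.88 ± 0.23), Slc2a1 (0.44 ± 0.13) and the oxygen sensor gene Egln3 (0.39 ± 0.08).

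**Figure D5:**
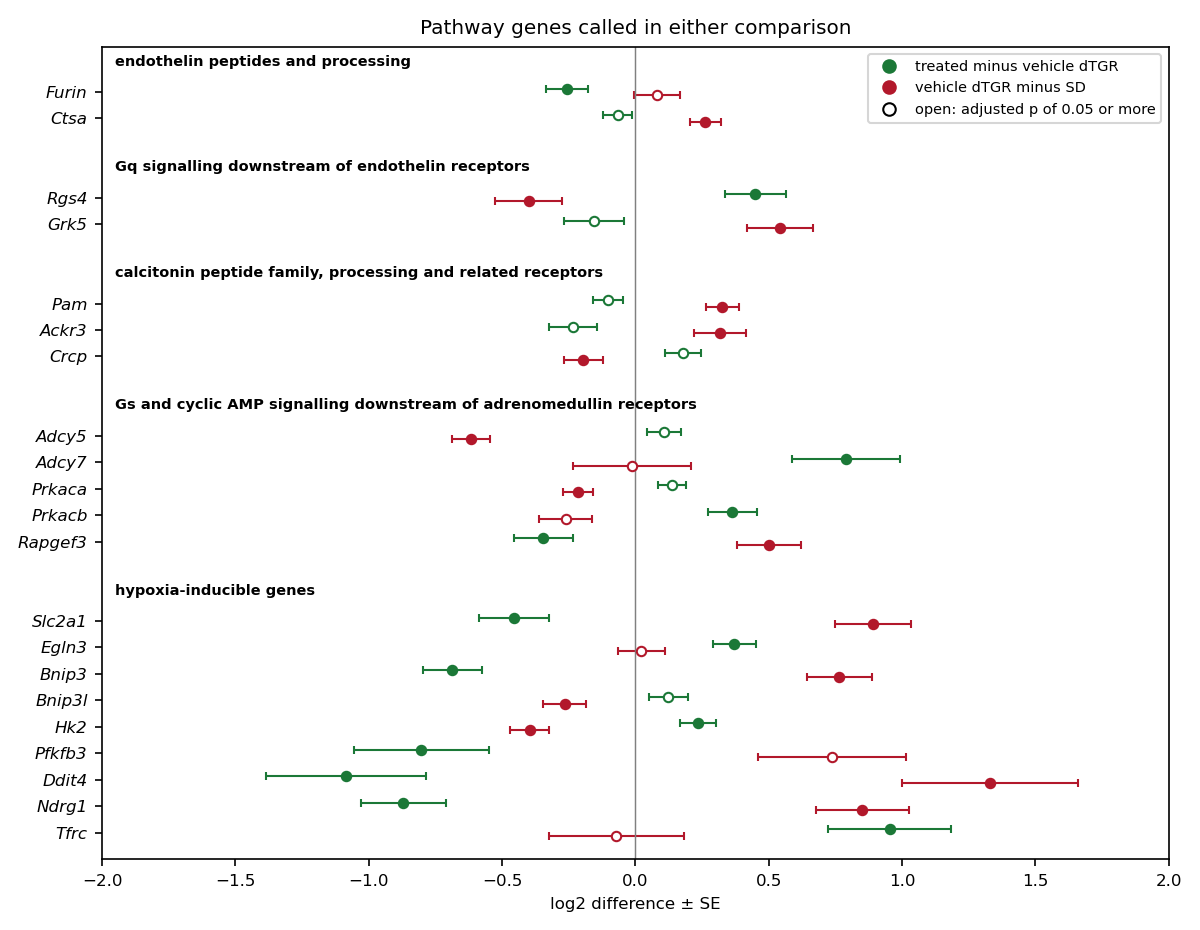
Log2 differences with their SE (horizontal axis) of the listed pathway genes called in vehicle dTGR against SD or in treated against vehicle dTGR, grouped by list, with open points for an adjusted p of 0.05 or more. Rapgef3, Ddit4, Ndrg1, Bnip3 and Slc2a1 lie above 0 in vehicle dTGR against SD and below 0 in treated against vehicle dTGR. Rgs4 and Hk2, also called in both, lie the other way.

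Endothelial cells are known to make Edn1, Ece1, Adm and Calcrl, and markers of several cell types moved with the groups. The marker counts here and in the next paragraph stand beside shares over all genes. Of all genes, 23.8% were called in vehicle dTGR against SD, 9.79% in treated against vehicle dTGR and 17.4% in treated dTGR against SD. Of 13 measured endothelial markers, 5 were higher in vehicle dTGR than in SD, led by Ecscr (0.71 ± 0.11, SE), Esam (0.67 ± 0.10) and Sox17 (0.66 ± 0.12). The 8 others were not called there. Of these, Cdh5 (-0.04), Tek (-0.04), Tie1 (-0.02) and Emcn (-0.22) lay below 0. Vwf (0.16), Sox18 (0.19), Egfl7 (0.13) and Cldn5 (0.37) lay above 0. In treated against vehicle dTGR 2 of 13 were higher and 5 lower, among them Sox17 (-0.63 ± 0.11) and Emcn (0.46 ± 0.12). In treated dTGR against SD 4 were higher, Sox18 (0.44 ± 0.15), Ecscr (0.32 ± 0.10), Tie1 (0.31 ± 0.09) and Erg (0.23 ± 0.06), and 1 was lower, Tek (-0.27 ± 0.06), with a list median of 0.23. Their summed intensity ran from 50012 to 58283 in treated dTGR, 53350 to 63046 in vehicle dTGR and 45632 to 53278 in SD. Of 7 lymphatic endothelial markers, Lyve1 was higher in vehicle dTGR than in SD (1.14 ± 0.14) and Prox1 lower (-0.62 ± 0.13). Of 7 smooth muscle and pericyte markers, 4 were higher in vehicle dTGR and 4 in treated dTGR than in SD, and the pericyte gene Cspg4 was 0.97 ± 0.09 above SD in vehicle dTGR and 0.80 ± 0.09 above it in treated dTGR. Their summed intensity ran from 27481 to 34621 in treated dTGR, 23979 to 31522 in vehicle dTGR and 21200 to 25181 in SD. The part of these cell types in the differences of the members was not tested.

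Of 10 macrophage markers, 7 were higher in vehicle dTGR than in SD, with Lgals3 at 1.38 ± 0.18 (SE) and C1qb at 1.24 ± 0.17. The 1 lower marker was Adgre1 (-0.63 ± 0.18). In treated against vehicle dTGR 3 were lower, and Adgre1 was the 1 higher marker (0.58 ± 0.16). Their summed intensity ran from 9902 to 18766 in treated dTGR, 12627 to 22708 in vehicle dTGR and 8008 to 13048 in SD. Of 8 fibroblast markers, 1 was higher in vehicle dTGR than in SD, Dcn (0.23 ± 0.08), and in treated against vehicle dTGR 4 were higher and 1 lower, among them Col3a1 (0.66 ± 0.18) and Tcf21 (-0.69 ± 0.18). Of 6 mesothelial markers, 4 were lower in vehicle dTGR than in SD, with Msln at -2.34 ± 0.37 and Upk3b at -2.20 ± 0.34, and 4 were lower in treated dTGR than in SD. The summed intensity of the mesothelial markers ran from 292 to 959 in treated dTGR, 319 to 566 in vehicle dTGR and 623 to 2621 in SD. The part of these cells in the members' differences was likewise not tested.

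To describe which genes varied with a member from heart to heart, each group mean was removed and Pearson's r was taken over the 28 arrays, which share one normalization. The genes named are those with the highest r among all genes kept, so their r is high by selection. Ece1 was most like the ubiquitin ligase gene Rnf111 (r = 0.86), Rtn4rl2 (r = 0.86) and the amino acid transporter gene Slc7a5 (r = 0.86). Without the 2 arrays farthest from the median of Ece1, these were 0.79, 0.87 and 0.74. Spearman's rho over all 28 arrays was 0.59, 0.87 and 0.61. The 8 vehicle hearts weigh most in Pearson's r of Ece1. Its standard deviation was 0.35 in vehicle dTGR, 0.08 in treated dTGR and 0.11 in SD. Slc7a5 was itself higher in vehicle dTGR than in SD (1.71, adjusted p = 0.000107) and lower in treated than in vehicle dTGR (-1.54, adjusted p = 0.00106). For the other members Pearson's r was lower, with highest r from 0.67 to 0.75. It lay between 0.46 and 0.71 for the 18 pairs named next when the 2 arrays farthest from the member's median were left out. Spearman's rho of these 18 pairs ran from 0.56 to 0.72, so by rank only Ece1 with Rtn4rl2 stood above them. Calcrl was most like Msmo1 (0.69), the sialomucin gene Podxl (0.67) and the transcription factor gene Irx4 (0.67), which came to 0.46, 0.54 and 0.47 without those arrays. Podxl was also higher in treated dTGR than in SD (0.29, adjusted p = 0.000972). Adm was most like Crh, Olr1451 and Tbx10 (0.67 to 0.61). Crh and Tbx10 were dim, with group means from 5.71 to 5.87 and from 6.17 to 6.30. Edn1 was most like Oat, Slc7a2 and Lsr (0.67 each, and 0.48, 0.53 and 0.59 without those arrays), and Edn3 like Tbc1d31, Fdft1 and Ppp1r3a (0.75 to 0.68). Ramp1 was most like Pik3r5, St8sia6 and Mfap2 (0.69 to 0.66), and Ramp3 like Rpa2, Zc3h12a and Dpf2 (0.68 to 0.61). Among the members themselves the highest r was 0.38 (Edn1 with Ece1) and the lowest -0.44 (Edn3 with Ece1), and Adm with Ece1 gave 0.13.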

How the data were processed

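Per the labels, 250 ng of total RNA a sample was labelled with biotin for Affymetrix whole transcript arrays. The authors deposited a table of intensity values, already normalized. RMA is the tool listed per the submitters' processing notes, and no version is given there. The deposited intensity values are linear, from 1.90 to 162208, with array medians from 99.5 to 107, and log2 was taken before every test. Arrays carry no counts, and their number limits the precision. Of 36685 probes, 14824 had 1 gene symbol, 829 several and 21032 none in the annotation. Probes were kept whose mean log2 intensity exceeded the 30th percentile of all probes (5.65), and the brightest probe stood for each gene.

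Differences came from limma 3.58.1 in R 4.3.3, with a mean per group over all 28 arrays, an intensity trend and two-sided tests. Exact permutation tests served the differences between members. The fit was tested on simulated data. Members, lists and tests were chosen with earlier results of these data known. Named genes are all members, up to 4 called genes of each list and comparison with the largest differences (of a list with none called, 2), and the 3 genes most like each member. Genes of lists called in another comparison are repeated where their values are set side by side. Hk2 and Bnip3l are named besides, as the hypoxia-inducible genes called lower in vehicle dTGR than in SD. The endothelial markers not called in that comparison are named as well. Each sample's title carries a number of its own, taken here as an animal number, and nothing else says whether replicates are separate animals. These numbers run in a separate block for each group, and what the blocks reflect is not given. The p-values set differences between groups against the spread between samples. No 2 arrays were identical. No protein sequence was used here.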

Additional observations from a re-analysis of the deposited data

How the results depend on the processing

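Every member was refitted under 12 alternatives (2 filters, 2 normalizations, 2 priors, 2 kinds of array weights, only the 2 groups, the mean of all probes, a pseudocount of 16, and without vehicle replicates 6 and 7) and without each of the 28 arrays. Of 834 such values, 816 kept their side of the threshold, 7 lost a call (all Ramp1 in vehicle dTGR against SD), 11 gained one and 0 reversed. Of the 11, 3 were Ramp3 against SD, whose SD mean of 5.52 lay below the filter level, and nothing is read from them. Ece1 and Adm kept their calls in both comparisons with vehicle dTGR, as did Calcrl and Ramp1 in treated dTGR against SD. All genes called in treated against vehicle dTGR numbered 1125, and 2065 without vehicle replicates 6 and 7, with 659 to 1558 when single arrays were left out (659 without vehicle replicate 4, 733 without replicate 5). Members called there numbered 2, then 4 without vehicle replicates 6 and 7, and 2 to 4 without single arrays. Without single arrays, Edn1 minus Adm ranged from -0.49 to -0.28 in vehicle dTGR against SD and from -0.52 to -0.39 in treated dTGR against SD, and Calcrl minus Adm from -0.45 to -0.29 in vehicle dTGR against SD. The cause of these changes was not tested. The differences Ednrb minus Ednra, Ramp2 minus Ramp3 and Ednra minus Edn1 were not run, since Ednra, Ednrb and Ramp2 had no probe of their own symbol. No paired analysis was possible because the numbers in the sample titles, taken here as animal numbers, differ between groups. Edn3 and Ramp3 lay near the filter level, which limits what their probes can show. With the filter at the median, Edn3 and Ramp3 were left out.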
